A study of Homo sapiens with 4 samples.

Results

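Pre-mRNA splicing factors and the CLK kinases that phosphorylate some of them were followed in HUT78 cells, an established human T-cell line of cutaneous T-cell lymphoma. The genes were taken by symbol: the SR proteins (SRSF), the heterogeneous nuclear ribonucleoproteins (HNRNP), the PRPF proteins, the small nuclear ribonucleoprotein proteins (SNRP), the U2AF subunits, the numbered RNA-binding motif proteins (RBM) and the CDC-like kinases CLK1 to CLK4. They made up 105 of the 14884 genes measured with a symbol: 11 SRSF, 25 HNRNP, 10 PRPF, 12 SNRP, 3 U2AF, 40 RBM and 4 CLK genes. The pattern for subunits of SF3A and SF3B matched 0 of these genes, so those subunits were not analysed. Of the 105, 95 code for protein, 6 are transcribed pseudogenes and 4 are antisense RNAs named after an RBM gene.

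One group of cells was exposed to CSH71, 250 nM, over 30 h and the other was untreated, with 2 arrays each. The series describes CSH71 as a chemical directed at the lipid-binding domain of the kinase p38γ. No vehicle is named for the untreated cells, and nothing in the labels says whether the 2 arrays of a group stem from separate cultures. The p-values thus rest on a spread between arrays that may be technical. Each value is a linear intensity of 1 probe set of a whole-transcript array. It sums over the transcripts of a gene, so spliced and unspliced forms cannot be told apart and splicing itself was not measured. Of 14 markers of T cells 10 were measured and 0 passed the threshold, an adjusted p under 0.05 from limma over all genes. LCK averaged 1107 in CSH71-treated and 1080 in untreated cells, ZAP70 1703 and 1724, and CD4 412 and 428. Of the 10, 7 had a negative log2 difference and the median was -0.06. Both CSH71 arrays lay below both untreated ones for CD247 (1032 and 1280, a log2 difference of -0.30), TRAT1 (1323 and 1548, -0.23) and LCP2 (2474 and 2795, -0.18), and above them for CD5 (2043 and 1766, 0.21). The groups were thus apart in 4 of the 10 markers, or 40%, against 31.6% of all genes, 16.6% lower and 15.0% higher. The part of these markers in other results was not tested. CD2 had 73.0 and 79.2 and CD28 had 86.0 and 75.1, close to the median of all probe sets on these arrays (71.5 to 81.1), and no background level is given. Of 9 markers of B cells and myeloid cells 4 were measured, all myeloid, so no B-cell marker was analysed, and 0 passed: LYZ averaged 36.0 and 27.7, CSF1R 187 and 207, CD14 81.2 and 77.5, and CD68 103 and 106. The genes of the CD3 gamma, delta and epsilon chains were not analysed here.

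SR proteins bind exonic sequences and recruit the spliceosome, the assembly of small nuclear ribonucleoproteins that cuts out introns, whereas many hnRNP proteins act against them at the same exons. SR proteins carry a tail rich in arginine and serine, and the CLK kinases phosphorylate its serines in the nucleus, which changes where SR proteins sit and how they act. CLK1 RNA is itself subject to regulated splicing, and a part of it is kept in the nucleus with introns still in place.

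The 4 CLK genes had higher signal on both CSH71 arrays than on both untreated arrays, which 15.0% of all genes also had. Their median log2 difference was 0.60, while the other 101 genes had a median of -0.01. CLK1, CLK3 and CLK4 were the 3 genes of the 105, or 2.86%, that differed by 0.5 or more. Over all genes 4.59% differed by that much in either direction. Of the SR protein genes 3 of 11 were positive and of the SNRP genes 3 of 12, against 47.9% of all genes. The other families had 14 of 25 (HNRNP), 22 of 40 (RBM), 7 of 10 (PRPF) and 1 of 3 (U2AF) positive. None of the 105 genes passed the threshold, which 7 genes or 0.0470% of the table passed. At an unadjusted limma p under 0.05 there were 5 of the 105, or 4.76%, against 5.11% of all genes, 3.20% higher and 1.91% lower. These 5 were CLK1, CLK3 and CLK4, higher with CSH71, and RBM12B (in its brighter probe set only) and its antisense RNA RBM12B-AS1, lower. Without untreated replicate 2 there were 3 in place of 5, and 0 genes of the whole table were called. Differences are of log2(intensity + 16), CSH71 minus untreated, and the added 16 makes those of dim probe sets smaller than without it.

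CLK1 is the best known of the dual-specificity CLK kinases. It had an intensity of 1543 and 1661 on the CSH71 arrays, against 869 and 958 on the untreated arrays. The means were 1602 ± 83.1 with CSH71 and 913 ± 62.9 without (SD, n = 2 each), and each gap between replicates was far smaller than the gap between the groups. The log2 difference was 0.80 ± 0.17 (SE), a 1.74-fold higher value, with a 95% interval of 0.40 to 1.21 (limma unadjusted p = 0.00230, adjusted p = 0.742). By its difference CLK1 ranked 68 of the 14884 genes. CLK1 did pass, with an adjusted limma p of 0.0415, when 64 in place of 16 was added to the intensity.

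CLK3, a kinase of the same family, had 1197 and 1081 with CSH71, against 738 and 715 without. Both treated arrays stood well above both untreated ones. The log2 difference was 0.64 ± 0.17, a 1.55-fold higher value, with a 95% interval of 0.23 to 1.04 (limma unadjusted p = 0.00724, adjusted p = 0.927). CLK4, the closest relative of CLK1, had 672 and 700 with CSH71, against 449 and 470 without, and its replicates lay close together in each group. Its log2 difference was 0.56 ± 0.17, or 1.48-fold, with an interval of 0.17 to 0.96 (limma unadjusted p = 0.0118, adjusted p = 0.927).

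CLK2 showed the smallest difference of the family. It had 366 and 305 with CSH71, against 267 and 287 without, so the groups did not overlap but the lower treated array lay close to the higher untreated one. The log2 difference was 0.25 ± 0.18, with an interval of -0.17 to 0.68 that includes 0 (limma unadjusted p = 0.199, adjusted p = 0.999). Whether CLK2 differed from the other CLK genes was not tested. With a limma variance prior that follows intensity, CLK1 (adjusted p = 2.79e-09) and CLK3 (0.000329) passed and CLK4 (0.0554) did not. That prior had infinite degrees of freedom, so the spread between a gene's own replicates did not enter those p-values.

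**Figure D1:**
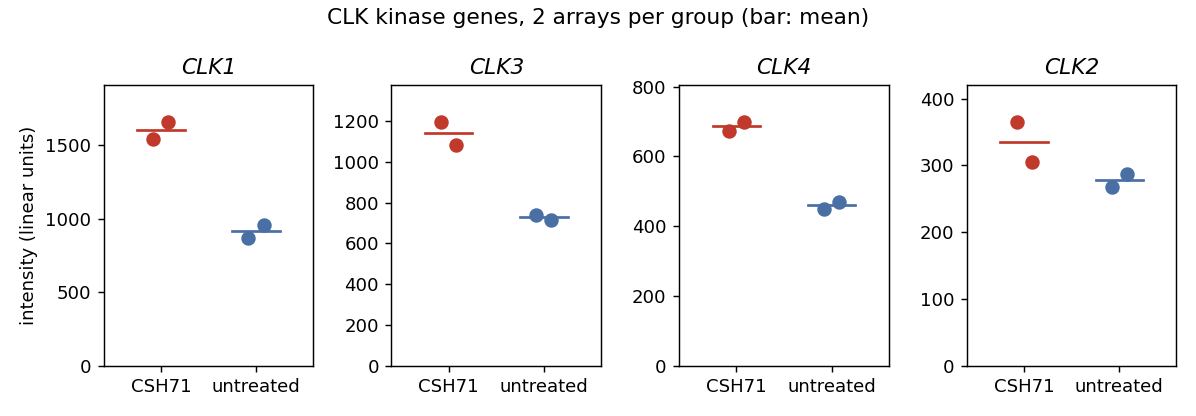
Linear intensity of each CLK gene, one dot per array, with CSH71 on the left, untreated on the right and a bar at the mean of 2 arrays; every vertical axis starts at 0. For CLK1, CLK3 and CLK4 the treated dots stand clearly above the untreated ones, while for CLK2 the treated array at 305 lies close to the untreated array at 287.

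The sequences before the start sites of the CLK genes are shown because all 4 had higher signal on both CSH71 arrays, although none passed the threshold. They are 250 bases upstream of RefSeq start sites on GRCh38.p14, read 5′ to 3′ on the strand of the gene, which is plus for CLK3 and minus for the others. Capitals mark TGACG on either strand (CGTCA as read here), the core of the element that factors of the CREB and CREM family bind.
CLK1 chr2:200864659-200864908: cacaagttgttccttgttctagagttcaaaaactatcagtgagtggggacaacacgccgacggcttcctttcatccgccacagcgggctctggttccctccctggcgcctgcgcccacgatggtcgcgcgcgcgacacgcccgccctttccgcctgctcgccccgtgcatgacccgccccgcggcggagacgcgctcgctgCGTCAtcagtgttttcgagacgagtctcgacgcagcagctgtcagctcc
CLK3 chr15:74608122-74608371: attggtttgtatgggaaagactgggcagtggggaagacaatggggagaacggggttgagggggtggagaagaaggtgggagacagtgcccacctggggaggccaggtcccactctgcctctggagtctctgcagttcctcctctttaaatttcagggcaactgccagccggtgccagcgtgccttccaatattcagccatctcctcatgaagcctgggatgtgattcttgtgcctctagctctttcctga
CLK3 chr15:74615586-74615835: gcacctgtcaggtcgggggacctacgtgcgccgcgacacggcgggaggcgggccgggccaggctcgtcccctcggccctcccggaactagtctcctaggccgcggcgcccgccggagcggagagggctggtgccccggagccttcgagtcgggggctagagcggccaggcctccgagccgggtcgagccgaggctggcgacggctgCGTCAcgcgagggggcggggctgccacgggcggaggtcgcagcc
CLK4 chr5:178627051-178627300: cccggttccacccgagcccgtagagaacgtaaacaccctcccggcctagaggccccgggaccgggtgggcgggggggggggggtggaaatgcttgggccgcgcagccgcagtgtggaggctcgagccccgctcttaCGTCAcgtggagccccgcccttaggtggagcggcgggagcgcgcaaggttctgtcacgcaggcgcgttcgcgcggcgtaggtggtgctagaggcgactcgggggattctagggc
CLK2 chr1:155273505-155273754: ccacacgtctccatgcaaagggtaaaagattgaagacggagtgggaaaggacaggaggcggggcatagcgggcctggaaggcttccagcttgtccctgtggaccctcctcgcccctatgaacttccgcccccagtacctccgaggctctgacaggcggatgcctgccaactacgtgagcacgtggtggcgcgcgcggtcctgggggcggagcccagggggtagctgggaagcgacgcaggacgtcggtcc
TGACG occurred once before the start of CLK1, with its first base at -49 from the start site, once at -44 before the downstream start of CLK3 and once at -114 in CLK4. The upstream window of CLK3 and the window of CLK2 held none. CLK1 has another RefSeq start further downstream, from which the same match lies at -146. The full palindrome TGACGTCA, which contains TGACG, and the AP-1 element TGANTCA were found in none of the windows of the 4 genes, and the E-box CACGTG was found once each in CLK2 and CLK4, where it overlaps the TGACG match in CLK4. Such matches are common: 24.9% of the 27305 genes with a promoter sequence had TGACG in at least 1 window, as did 39.3% of the 89 splicing factor and CLK genes with one. By family these were 3 of 4 CLK, 5 of 9 SRSF, 11 of 20 HNRNP, 5 of 8 PRPF, 3 of 10 SNRP, 1 of 3 U2AF and 7 of 35 RBM genes. The 27305 genes were not limited to the measured ones or matched for base composition, and the shares were not compared by a test. A match of letters is not evidence of binding.

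The SR protein genes, whose products are substrates of the CLK kinases, had a median log2 difference of -0.12, or -0.15 over the 10 that code for protein. Of the coding genes 8 were lower and 2 higher. In 6 of them both CSH71 arrays lay below both untreated arrays, and in 2 they lay above. Over all genes 31.6% had groups that did not overlap, 15.0% higher and 16.6% lower. None of the SRSF genes had an unadjusted limma p under 0.05. The median difference of the family ran from -0.17 to -0.08 when 1 array was left out. The median log2 signal of its genes, a different quantity, was 10.76 and 10.92 on the CSH71 arrays, against 10.67 and 10.83 on the untreated ones.

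SRSF4 was among the lower ones, with 1263 and 1244 in CSH71-treated cells, against 1463 and 1412 in untreated cells. The log2 difference was -0.20 ± 0.16 (SE), with a 95% interval of -0.59 to 0.20. Its close relative SRSF6 had 3460 and 3387 with CSH71, against 3882 and 3860 without. In both genes the replicates were tighter than the gap between groups. SRSF3, the smallest SR protein, had 3893 and 4263 with CSH71, against 4430 and 4841 without. SRSF1, which takes part in both constitutive and alternative splicing, had 4946 and 5178, against 5344 and 5697 (log2 difference -0.12 ± 0.17). SRSF8, a relative of SRSF2, had 773 and 703, against 799 and 925 (-0.22 ± 0.18). In these 3 genes the groups were separate by less than the gap between the untreated replicates.

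SRSF12 had the largest difference of the family, -0.40 ± 0.19, but its signal was low: 17.9 and 17.8 with CSH71, against 23.2 and 35.1 without. The untreated arrays differed from each other by more than the lower of them differed from the treated ones. SRSF2 and SRSF7, both SR proteins of the classical set, had overlapping groups, with log2 differences of -0.05 and -0.06.

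SRSF5 and SRSF11 were the coding members on the other side. SRSF5, whose product resembles those of SRSF4 and SRSF6, had 2309 and 2545 with CSH71, against 2092 and 2119 without, a log2 difference of 0.20 ± 0.17 (interval -0.20 to 0.60). SRSF11 had 1713 and 1918, against 1618 and 1628, a difference of 0.16 ± 0.17. The untreated replicates of both genes agreed closely and the treated ones stood above them. The pseudogene SRSF3P2 was at 31.2 and 30.9 with CSH71 and at 23.9 and 27.0 without (0.18).

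**Figure D2:**
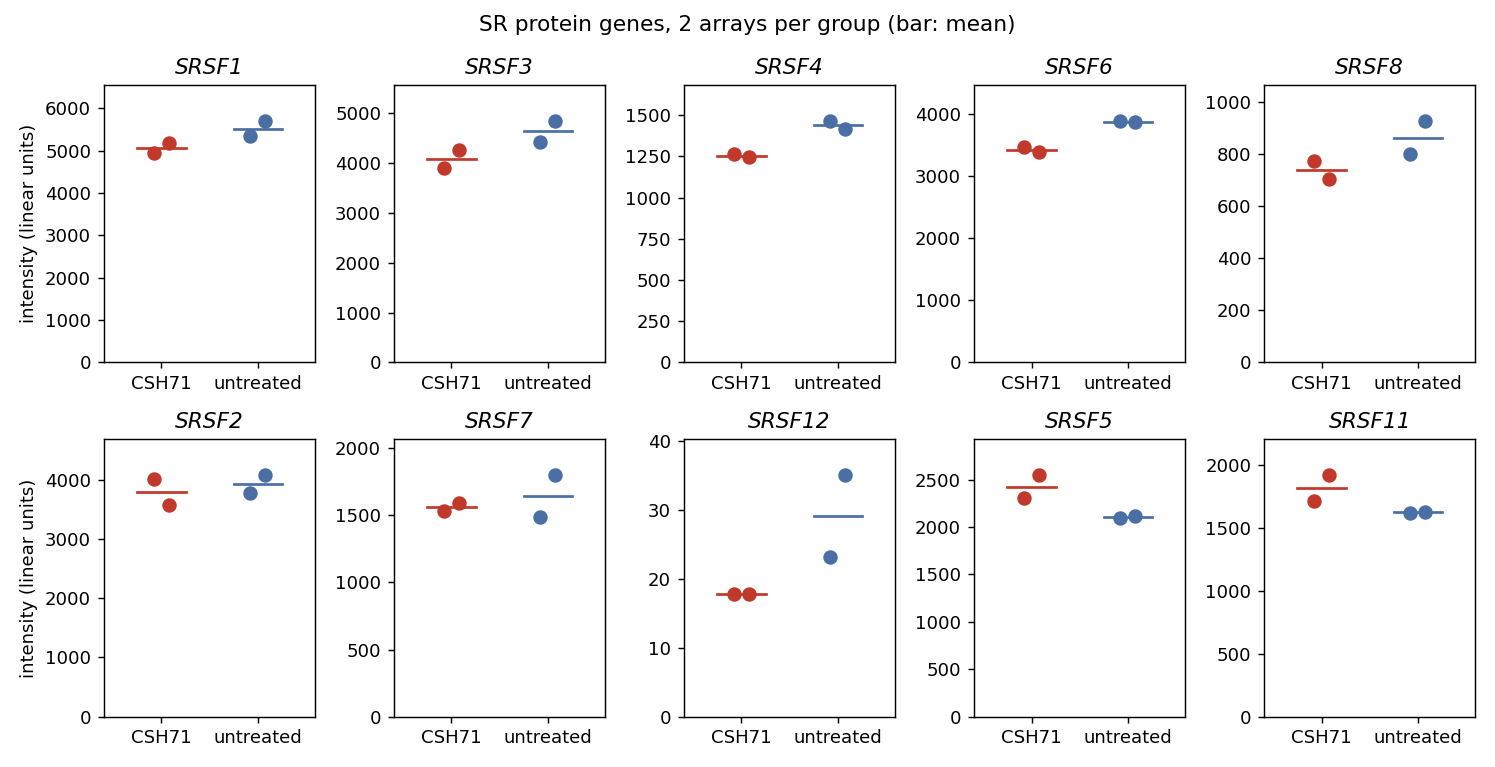
Linear intensity of the 10 protein-coding SRSF genes, one dot per array, CSH71 left and untreated right, with a bar at the mean of 2 arrays and axes from 0. SRSF1, SRSF3, SRSF4, SRSF6, SRSF8 and SRSF12 lie lower with CSH71, SRSF2 and SRSF7 overlap, and SRSF5 and SRSF11 lie higher.

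The hnRNP genes were centred near 0, with a median log2 difference of 0.01 over 25 genes, 14 positive and 11 negative, and a range of -0.19 to 0.29. The groups were apart in 11 of them, 5 higher and 6 lower, or 44.0%, against 31.6% of all genes. HNRNPH1, which binds runs of guanines near splice sites, had the largest difference. It had 2808 and 2928 with CSH71, against 2388 and 2283 without, a log2 difference of 0.29 ± 0.17 (limma unadjusted p = 0.119, adjusted p = 0.999). It passed under the prior that follows intensity (limma adjusted p = 0.0317), where the spread between its own replicates again did not enter.

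HNRNPA1, a classical antagonist of SR proteins, had 888 and 857 with CSH71, against 717 and 810 without (0.19 ± 0.17). The treated arrays were the higher ones, by less than the untreated arrays differed from each other. HNRNPA1 has near-identical retrocopies, 2 of which (HNRNPA1P10 and HNRNPA1P33) have probe sets of their own here, and shared signal between them cannot be told apart. HNRNPA1P10 was far brighter, with 6331 and 6686 with CSH71, against 6392 and 6307 without (0.04). HNRNPA1P33 had 446 and 506, against 510 and 484 (-0.06), and the groups of both overlapped. HNRNPCL2, a copy related to HNRNPC, had 70.2 and 54.5, against 53.3 and 48.0 (0.23 ± 0.18). The pseudogene HNRNPKP3 had 252 and 252, against 236 and 192 (0.23 ± 0.18). HNRNPK itself was at 0.03 and HNRNPC at 0.01, both with overlapping groups.

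HNRNPM, named for the brightest probe set of the family, had 6967 and 7055 with CSH71, against 7227 and 7241 without, and a log2 difference of -0.05 ± 0.16 with an interval of -0.43 to 0.34. Its groups were apart although the difference was that small. HNRNPR was at -0.18, HNRNPUL2 at -0.17 and HNRNPF, a relative of HNRNPH1, at -0.14, each with both treated arrays below both untreated ones.

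The RBM genes are a mixed set of proteins with an RNA recognition motif, of which only some act in splicing. Their median log2 difference was 0.05, with 22 positive and 18 negative among 40 and the groups apart upwards in 8 and downwards in 8, against 15.0% and 16.6% of all genes. RBM12B had 165 and 192 with CSH71, against 233 and 271 without, a log2 difference of -0.46 ± 0.18 (limma unadjusted p = 0.0386, adjusted p = 0.949). RBM12B-AS1, the antisense RNA named for the same locus, had 41.8 and 39.4, against 59.9 and 58.7, a difference of -0.41 ± 0.17 (limma unadjusted p = 0.0411, adjusted p = 0.956). The 2 genes were thus lower on the same arrays. A further probe set of RBM12B went the other way, with 99.0 and 96.8 with CSH71, against 76.4 and 60.1 without (0.44), and the mean of both probe sets gave -0.01. The direction for RBM12B therefore depends on the probe set, and signal of the gene and of its antisense partner may not be separable.

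RBM17, a splicing factor that binds proteins of the early spliceosome, had 780 and 793 with CSH71, against 604 and 623 without. The replicates were within a few percent of each other, and the log2 difference was 0.35 ± 0.16 (limma unadjusted p = 0.0720, adjusted p = 0.989). RBM38, which binds RNA and controls splicing and stability of its targets, had 903 and 805, against 721 and 626 (0.34 ± 0.18). The lower treated array stood above the higher untreated one. RBM6, a relative of the splicing regulator RBM5, had 846 and 796, against 638 and 701 (0.29), while RBM5 itself overlapped between groups at -0.06. RBM39, a splicing factor that binds U2AF, had 1360 and 1371, against 1176 and 1258 (0.16).

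RBM15, which takes part in RNA methylation, was lower, with 525 and 512 in treated cells, against 608 and 642 in untreated cells (-0.26 ± 0.17). RBM12 had 2506 and 2429, against 2855 and 2783 (-0.19 ± 0.17), and RBM28, a nucleolar protein, had 1621 and 1665, against 1830 and 1933 (-0.19). In these 3 genes the groups were separate and the replicates close. RBM8A, a subunit of the exon junction complex, was at 0.07, RBM22, a component of the active spliceosome, at 0.08 and RBM25, a regulator of alternative splicing, at -0.01, all 3 with overlapping groups. RBM46 had a difference of 0.45 ± 0.28 that came from 1 array: it had 47.0 and 95.7 with CSH71, against 43.4 and 47.2 without.

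PRPF genes, which encode proteins of the small nuclear ribonucleoproteins and of the complexes that activate the spliceosome, had a median log2 difference of 0.04 over 10 genes. Their groups were apart in 2 of 10, both upwards, close to the 15.0% of all genes apart in that direction. PRPF8, the central protein at the catalytic site, had 5985 and 5378 with CSH71, against 5361 and 5768 without (0.03 ± 0.17), so the groups overlapped. PRPF4, a protein of the U4/U6 particle, had 2005 and 1915, against 1773 and 1840 (0.12 ± 0.17). PRPF31, another protein of that particle, was at -0.11 and PRPF39, associated with the U1 particle, at 0.17, both with overlapping groups. PRPF40B had the largest difference, -0.37 ± 0.25, on a low signal of 36.3 and 23.3, against 31.7 and 56.0.

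SNRP genes encode the Sm proteins that form a ring around small nuclear RNAs, and proteins specific to single particles. Their median was -0.08 over 12 genes, 9 of them negative, and the groups were apart downwards in 2 and upwards in 0, against 16.6% and 15.0% of all genes. SNRPA, a protein of the U1 particle, had 2041 and 2013 with CSH71, against 2272 and 2431 without (-0.21 ± 0.17). The Sm protein gene SNRPF had 878 and 950, against 966 and 1160 (-0.21 ± 0.18), where the groups were separate by less than the untreated replicates. SNRPD1 was at -0.15, SNRPG at -0.19 and SNRPD3 at -0.05, all Sm proteins with overlapping groups. SNRPB2, a protein of the U2 particle, had 4769 and 4876, against 4951 and 4694, and a difference of 0.00. The array medians of the family spread by 0.11 (SD within groups), more than its median difference.

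U2AF recognises the end of the intron. U2AF2, its large subunit, which binds the pyrimidine tract, had 2566 and 2490 with CSH71, against 2600 and 2807 without (-0.10 ± 0.17). U2AF1, the small subunit, had 2482 and 2728, against 2481 and 2789 (-0.02 ± 0.17), and U2AF1L4, its relative, was at 0.07 ± 0.17. The groups overlapped for U2AF1, and the other 2 genes were apart in opposite directions.

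**Figure D3:**
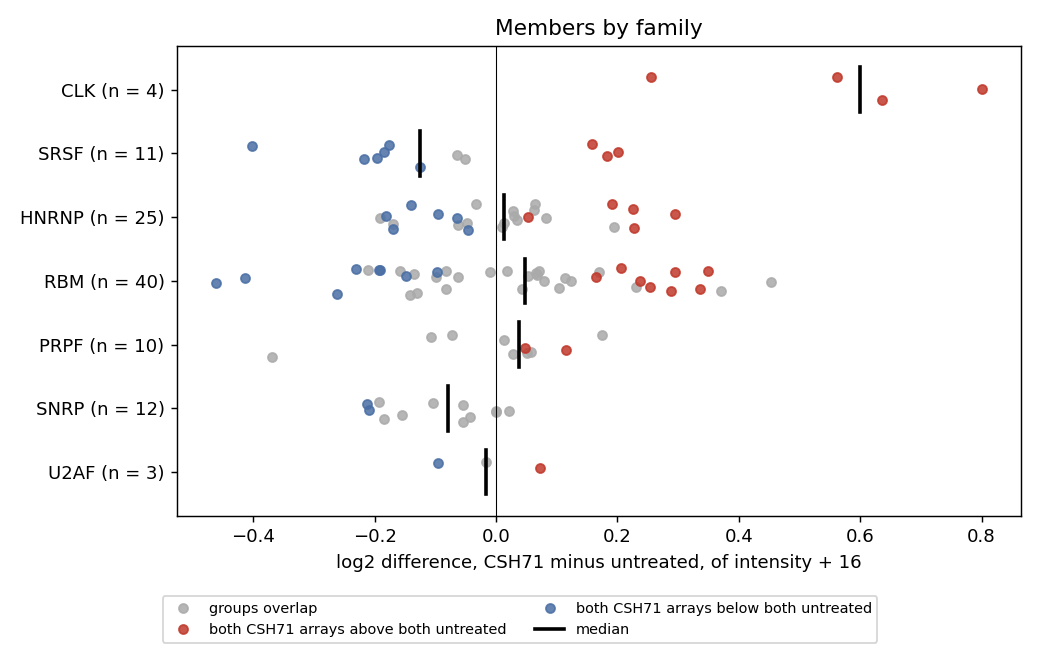
Log2 difference (CSH71 minus untreated, of intensity + 16) on the horizontal axis for each of the 105 genes, by family, with a bar at the family median. Red dots had both CSH71 arrays above both untreated ones, blue dots both below, and grey dots overlapped. The CLK median is 0.60 and the medians of the other families lie between -0.12 and 0.05.

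Across the 105 genes the groups were apart in 46, or 43.8%, with 23 higher and 23 lower, against 31.6% of all genes, 15.0% higher and 16.6% lower. The probe sets were also brighter than most, with a median log2 signal of 9.85 against 7.26 over all genes, and 85 of the 105 lay above the median gene. Their replicates were closer as well: the median gap on the log2 scale was 0.14 between the CSH71 arrays and 0.11 between the untreated ones, against 0.19 and 0.22 over all genes. The part of signal strength in the share of separate groups was not tested. The median size of the difference was 0.13 for the 105 genes and 0.14 for all genes. The 95% intervals of 102 of the 105 lay within 1 on the log2 scale in either direction. The other 3 were CLK1, CLK3 and RBM46, whose upper bounds were 1.21, 1.04 and 1.11.

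**Figure D4:**
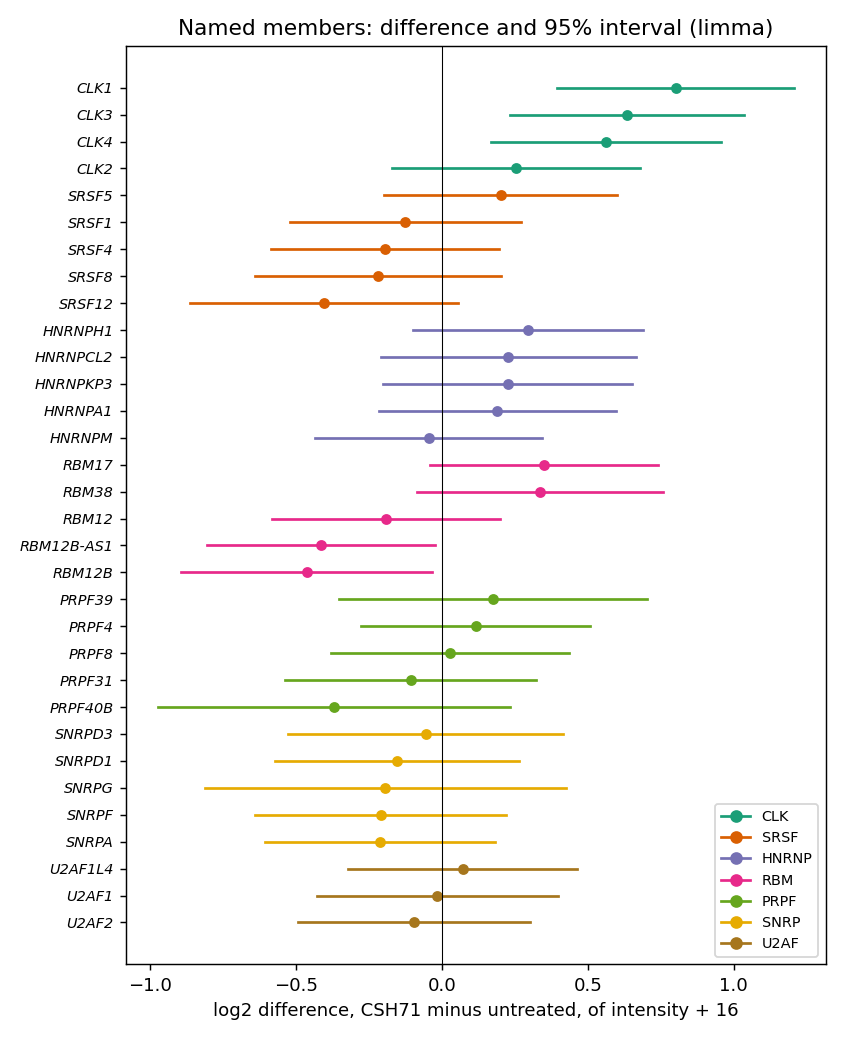
Log2 difference (CSH71 minus untreated, of intensity + 16) with its 95% interval from limma for the 32 genes named by rule, coloured by family. The intervals of CLK1, CLK3, CLK4, RBM12B and RBM12B-AS1 exclude 0, and the others cross it. RBM12B is drawn by its brighter probe set, and its dimmer one went the other way.

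The rest of the splicing pathway was followed in 6 further lists, of which 107 of 150 genes were measured. Of these 107 genes 0 passed the threshold and 0 had an unadjusted limma p under 0.05, against 5.11% of all genes. Their median log2 difference was -0.04, with 43 positive and 64 negative. The groups were apart in 47, or 43.9%, 15 upwards and 32 downwards, against 43.8% of the 105 genes and 31.6% of all genes, 15.0% upwards and 16.6% downwards.

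Other kinases of splicing factors had a median of 0.03 over 10 genes, with 6 positive. SRPK3, a kinase of SR proteins outside the CLK family, had 131 and 106 with CSH71, against 142 and 150 without (-0.27 ± 0.18), and DYRK3, a kinase that dissolves nuclear speckles, had 285 and 301, against 241 and 252 (0.24 ± 0.17). SR-related proteins had a median of -0.03 over 23 genes. Among them BCLAF1 had 2159 and 2265, against 2778 and 2744 (-0.32 ± 0.17), and RSRP1 had 1297 and 1503, against 1035 and 1169 (0.34 ± 0.18). These 2 genes were separate in opposite directions.

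The list of the SMN complex, which loads Sm proteins onto small nuclear RNAs, and of other factors of their assembly and transport had the lowest median of the 6 lists, -0.10 over 12 genes, with the groups apart downwards in 4 and upwards in 0, against 16.6% and 15.0% of all genes. GEMIN5, the subunit of the SMN complex that recognises small nuclear RNA, had 834 and 717 with CSH71, against 968 and 1072 without (-0.39 ± 0.18; limma unadjusted p = 0.0654, adjusted p = 0.989). SNUPN, the adaptor that carries assembled particles into the nucleus, had 902 and 729, against 987 and 1134 (-0.38 ± 0.19). The treated arrays of both genes were the lower ones.

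Other spliceosome components had a median of -0.06 over 39 genes, 27 of them negative, with the groups apart downwards in 11 and upwards in 5, against 16.6% and 15.0% of all genes. The helicase gene DDX42 had 1342 and 1300, against 1611 and 1745 (-0.34 ± 0.17), and CWC15 had 398 and 390, against 455 and 487 (-0.25 ± 0.17). Other RNA-binding regulators of splicing had a median of -0.01 over 18 genes. PTBP1, a repressor of exons, had 6974 and 6734, against 5931 and 6155 (0.18 ± 0.17), and PCBP2 had 2305 and 2244, against 1900 and 2027 (0.21 ± 0.17). The exon junction complex and nonsense-mediated decay had a median of -0.06 over 5 genes, with UPF2 at -0.08 and MAGOHB at -0.10, both overlapping.

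**Figure D5:**
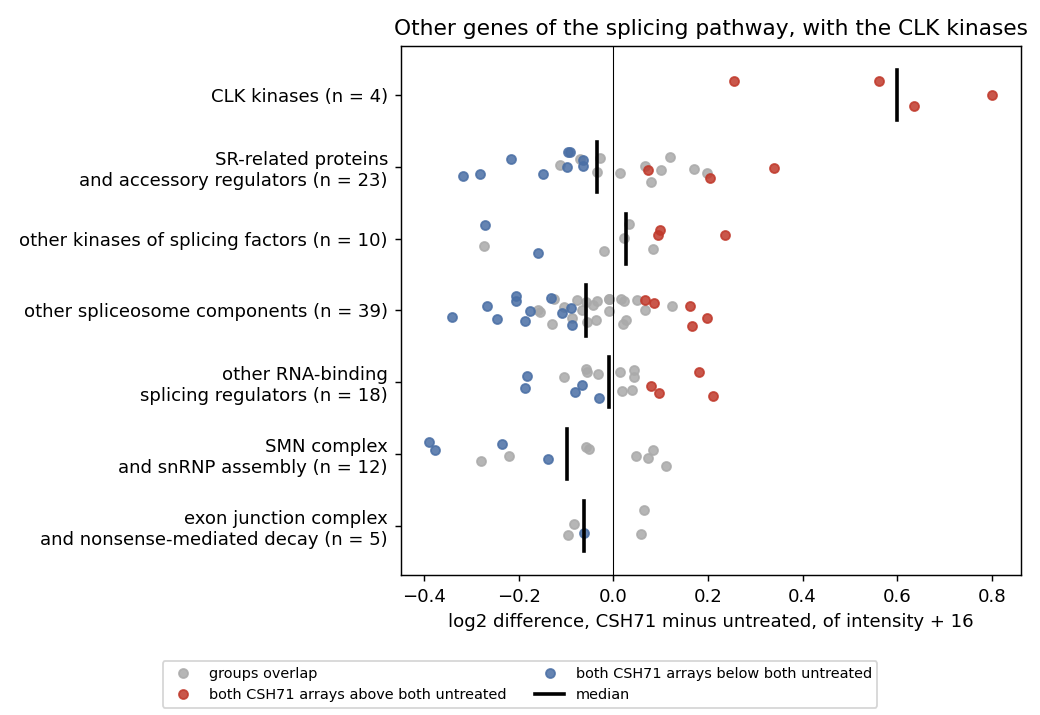
Log2 difference (CSH71 minus untreated, of intensity + 16) on the horizontal axis for the 4 CLK genes in the top line and for 107 other genes of the splicing pathway in 6 lists below, with a bar at each median. Red, blue and grey dots mark groups apart upwards, apart downwards and overlapping; the medians of the 6 lists lie between -0.10 and 0.03, and CLK1, CLK3 and CLK4 lie to the right of every dot of those lists.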

How the data were processed

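Total RNA of HUT78 cells was measured on 4 Affymetrix whole-transcript arrays. The values the authors deposited are linear intensities, 1 per probe set, from 0 to 19331. Affymetrix Expression Console is named in the submitters' processing notes; for its version, background correction and normalization, nothing is given in the sources used here. Array medians ran from 71.5 to 81.1. The number of arrays limits the precision.

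Groups and replicate numbers came from the sample titles. Of 53617 probe sets, the 16098 with exactly 1 symbol in the platform annotation were kept and the others left out. The probe set with the highest mean was used for each of 14884 genes. The symbols of all 105 genes were the same in RefSeq GRCh38.p14, which also gave biotypes and promoter sequences. Values were transformed to log2(intensity + 16), since some were 0, and compared with limma 3.58.1 (R 4.3.3), with 2-sided p-values adjusted by Benjamini-Hochberg over all 14884 genes. The procedure was run on simulated data with independent noise on each array and variances unrelated to intensity. That run does not show how it performs where arrays deviate together or variance follows intensity. Named were CLK1 to CLK4, per family the 4 genes with the smallest p and the brightest, and per list the 2 with the smallest p; further members were named after their values were seen. Members, lists, motifs and the constant of 16 were chosen with earlier results of these data known, so no list was tested as a set. Alternatives were a replicate block, other normalizations, pseudocounts, filters and priors, and each array left out. Figures were drawn with matplotlib 3.10.9.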

Additional observations from a re-analysis of the deposited data

How the results depend on the processing

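Over the 14 refits the log2 difference ran from 0.73 to 0.87 for CLK1, 0.56 to 0.71 for CLK3, 0.52 to 0.60 for CLK4 and 0.13 to 0.38 for CLK2. Most of these refits could not turn the sign. Blocks and priors do not change the difference, and the filter and the probe set means left the CLK values as they were. Since the CLK groups did not overlap, leaving out 1 array or changing the added constant keeps the difference positive. Quantile normalization and median centring could have turned it, and there all 4 genes stayed positive. The number of the 105 genes called by limma was 0, but 3 with the prior that follows intensity (CLK1, CLK3 and HNRNPH1) and 1 with a pseudocount of 64 (CLK1); it was 0 in each refit without 1 array. At an unadjusted limma p under 0.05 there were 5 of the 105, against 760 of all 14884 genes. There were 8 against 1291 with crossed replicate numbers and 3 against 867 after median centring. With the prior that follows intensity there were 17 against 876. The same-numbered arrays did not deviate together (correlation -0.29), so the replicate block describes only the numbering. With 2 arrays per group, this equals a positive correlation of the same size between differently numbered arrays, which the crossed pairing follows. The source of that correlation was not tested. With the replicate block 3 of the 105 had an unadjusted limma p under 0.05 and 0 passed, and 28 genes of the whole table passed. There the variance prior again had infinite degrees of freedom, and the spread of each gene itself played no part.

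Over all genes 7 were called, against 0 with the crossed pairing (1291 at an unadjusted limma p under 0.05), 0 after quantile normalization (966), 0 when 1 was added to the intensity (768), 33 when 64 was added, 27 after median centring, 11 without the dimmest 40% of genes, 143 with the prior that follows intensity, and 0 to 29 when 1 array was left out: 0 without untreated replicate 1 (794) or untreated replicate 2 (609), 29 without CSH71 replicate 1 and 20 without CSH71 replicate 2. The lone array of a group is then assumed to vary like the other group.

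The CLK median was 0.56 with a pseudocount of 64 and 0.58 to 0.62 when 1 array was left out. The HNRNP median ran from -0.0364 (without CSH71 replicate 2) to 0.0306, and the PRPF median from -0.0377 (without untreated replicate 1) to 0.0865 (without untreated replicate 2). The other family medians moved by less than the spread of their array medians. Of the 32 named genes, 26 kept their sign throughout, as must any gene with separate groups when 1 array is left out. The other 6 had small differences that turned when 1 array was left out. U2AF1 ran from -0.0995 to 0.0683 over those refits, positive without untreated replicate 2 or CSH71 replicate 1, and was 0.00467 after median centring. PRPF8 ran from -0.0479 to 0.106, negative without untreated replicate 1 or CSH71 replicate 1, and PRPF39 from -0.0516 (without untreated replicate 1) to 0.402. PRPF31 ran from -0.240 to 0.0279 and SNRPG from -0.570 to 0.183, both positive without untreated replicate 2, and SNRPD3 from -0.257 to 0.147, positive without CSH71 replicate 2. The causes were not tested. Pseudogenes and antisense RNAs left out, which was decided after seeing the data as was the crossed pairing, 4 of 95 genes had an unadjusted p under 0.05.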
